A study of Morchella sextelata with 15 samples.

Results

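The transcriptome of Morchella sextelata mycelium grown with S-metolachlor was compared with that of mycelium grown without herbicide. The 2 groups hold 6 of the 15 libraries of the series, 3 from S-metolachlor and 3 from control, all from wild-type mycelium. Morchella sextelata is a cultivated black morel, an ascomycete fungus, and mycelium is its vegetative network of hyphae. Per the series description, cultures grew for 5 days at 20 °C on potato dextrose agar, with S-metolachlor at 10 times its normal application concentration or with nothing added. The other 9 libraries, 3 each from trifluralin, pendimethalin and acetochlor at 10 times their own rates, entered the same model and serve below as a second reference. The doses are equal multiples of each product's rate, not equal concentrations. The labels do not say whether each library came from a separate culture, so the p-values measure the spread between these libraries, which may be technical.

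S-metolachlor is a chloroacetanilide, the stereoisomer-enriched form of the herbicide metolachlor. In plants, chloroacetanilides block the enzymes that lengthen fatty acids into very-long-chain fatty acids, which are built into cuticular waxes and sphingolipids. Fungi also make very-long-chain fatty acids for their sphingolipids, but in yeast the enzymes that do so belong to a different protein family from the plant targets.

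The comparison covers 19229 of the 20602 transcripts listed. The other 1373 (6.66%) were left out by a rule on the counts: at least 20 in S-metolachlor replicate 1, at least 4 times the count of replicate 2, and a mean under 2 over the 12 libraries of the other groups. The source of these transcripts is unclear. They held 148626 counts in S-metolachlor replicate 1, 6318 in replicate 2, 15250 in replicate 3, and 296 to 565 in the control libraries, and 1354 of them have names ending in 1. The rule removes transcripts that are high with S-metolachlor and near 0 in control, and therefore acts on the outcome. Just inside it, the 47 transcripts at 4 to under 5 times replicate 2 had median counts of 35, 8 and 14 in replicates 1, 2 and 3. Just outside it, the 43 kept only because replicate 1 was at 3 to under 4 times replicate 2 had 30, 9 and 12. The 126 kept only because replicate 1 held 15 to 19 counts had 18, 0 and 0. The 78 kept only for a mean of 2 to under 4 over the other groups had 36, 6 and 15. Names ending in 1 made up 40, 123 and 64 of these kept sets, so transcripts like the left-out ones remain.

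Transcripts are named here as the files name them, by the number of a de novo assembly. The files do not pair these names with genes, and 0 of them occur among the 13182 genes of the reference gene table, so no transcript can be given a function. Few transcripts are therefore named, and the rest are described by counts. Levels are given as CPM, the counts of a transcript relative to the total of its library, with totals adjusted by the trimmed mean of M-values (TMM), which sets aside extreme transcripts. They are not corrected for length and serve mainly to compare libraries for 1 transcript. Ranks, abundance classes, lists of the most abundant and the choice of the largest gains and losses in CPM therefore also depend on transcript length. A transcript was called changed at a Benjamini-Hochberg adjusted p under 0.05 in edgeR's quasi-likelihood test. In bulk RNA, fewer cells of a kind and less RNA per cell cannot be told apart.

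The largest loss in CPM was in TRINITY_DN7810_c0_g1_i3_5. It stood at 15767, 21614 and 11374 CPM in the 3 control libraries and at 98.2, 152 and 110 CPM in the 3 S-metolachlor libraries. Mean levels were 16252 ± 5137 CPM in control and 120 ± 28.3 CPM with S-metolachlor (SD, n = 3 each). The log2 change was -7.08 (SE 0.59, edgeR adjusted p = 4.18e-06). From rank 2 among the tested transcripts of the control it went to rank 1691. It was far less affected on the other herbicides, at 11203 ± 2208 CPM with trifluralin, 10653 ± 7488 with pendimethalin and 9976 ± 1753 with acetochlor, and none of these was called against control (edgeR adjusted p = 0.445, 0.411 and 0.370).

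The second largest loss was in TRINITY_DN4445_c0_g1_i2_3, with 10038, 7388 and 13609 CPM in control and 562, 645 and 549 CPM with S-metolachlor. The log2 change was -4.14 (SE 0.82, edgeR adjusted p = 0.00149), from 10345 ± 3122 to 585 ± 52.4 CPM (SD, n = 3 each), and the rank went from 4 to 220. This transcript was called lower with all 4 herbicides. Its means were 1118 ± 755 CPM with trifluralin, 514 ± 444 with pendimethalin and 1513 ± 1068 with acetochlor (edgeR adjusted p = 0.0191, 0.00685 and 0.0403). The S-metolachlor libraries were close together, and the control libraries lay above every herbicide library.

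The largest gain was in TRINITY_DN8379_c1_g2_i1_1. Control libraries were at 2687, 2747 and 4533 CPM and S-metolachlor libraries at 14171, 12901 and 13908 CPM. The mean went from 3322 ± 1049 to 13660 ± 670 CPM (SD, n = 3 each), and the log2 change was 2.04 (SE 0.73, edgeR adjusted p = 0.0354). All S-metolachlor libraries lay far above all control libraries. With only these 2 groups in the fit, the SE was 0.29 and the edgeR adjusted p 0.00151. In the fit of all 15 libraries, which shares 1 estimate of spread, the call needed all 6 libraries of the compared groups. Leaving out 1 of these 6 in turn gave edgeR adjusted p-values from 0.0556 (control replicate 3) to 0.110 (control replicate 1). The spread on the other herbicides was wide, from 297 to 1341 CPM with trifluralin, 295 to 3672 with pendimethalin and 1868 to 3891 with acetochlor.

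The second largest gain was in TRINITY_DN7992_c0_g1_i14_5, with 3248, 4402 and 2184 CPM in control and 8747, 9016 and 9949 CPM with S-metolachlor. The log2 fold change was 1.49 (SE 0.36, edgeR adjusted p = 0.00516), from 3278 ± 1109 to 9237 ± 631 CPM (SD, n = 3 each). The level was 2495 ± 1487 CPM with trifluralin, 2964 ± 585 with pendimethalin and 3940 ± 215 with acetochlor, none of them called against control (edgeR adjusted p = 0.476, 0.833 and 0.698). These gains took the transcripts from ranks 23 and 24 in control to ranks 2 and 3 with S-metolachlor. Both named gains and the loss of TRINITY_DN7810_c0_g1_i3_5 also separated S-metolachlor from the mean of the other herbicides, with log2 differences of 3.04, 1.59 and -6.47 (edgeR adjusted p = 0.000470, 0.000460 and 2.73e-06). For TRINITY_DN4445_c0_g1_i2_3 that difference was -0.70 (SE 0.62, edgeR adjusted p = 0.379).

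**Figure D1:**
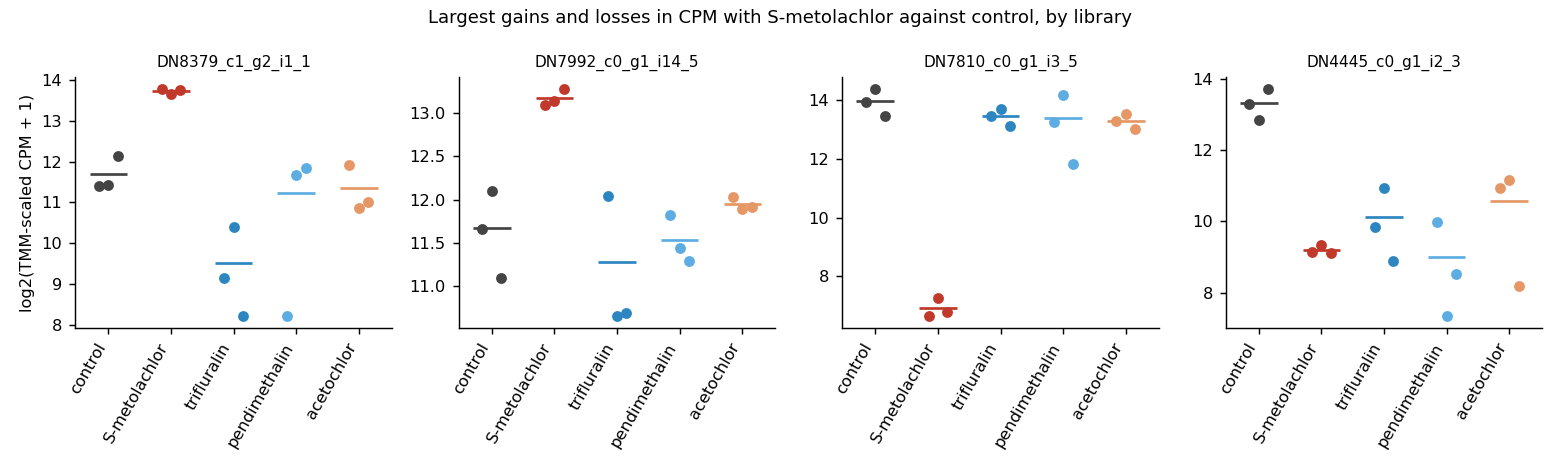
Levels of the 2 transcripts with the largest gain and the 2 with the largest loss in mean CPM, as log2(TMM-scaled CPM + 1), in each of the 15 libraries (points) with the group mean (line). The S-metolachlor points of TRINITY_DN7810_c0_g1_i3_5 lie at 98.2 to 152 CPM, below all 12 other libraries, whereas those of TRINITY_DN4445_c0_g1_i2_3 lie among the other herbicides.

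Of the 19229 transcripts, 17391 passed a filter on low counts and were tested, and 7936 were called, 4121 higher and 3815 lower with S-metolachlor. Over all 17555 tested transcripts, the left-out ones included, 46.1% were called, 24.4% higher and 21.7% lower, and the share among the kept transcripts was 45.6%. S-metolachlor and control libraries were fully separated in 62.5% of the kept transcripts tested, against 62.9% of all tested transcripts, and in 98.7% of those called. The median log2 fold change was 1.88 among the called rises and -1.76 among the called falls, and 0.07 over all kept transcripts tested. In limma on log2(FPKM + 1), where libraries are scaled to a common total and not by TMM, 5460 were called higher and 3055 lower, 64.1% of calls against 51.9%, and the median of all kept transcripts was 0.22. Without control replicate 1 the balance turned, to 3087 higher and 3448 lower, and without control replicate 3 to 3246 and 3496. The limma run changed scaling, unit, filter and test together, and scaling to a common total alone was not run. The mean TMM factor was 0.905 in control and 1.07 with S-metolachlor. RLE, which like TMM does not hold the totals equal, gave 4122 higher and 3829 lower. It therefore cannot show how the balance depends on scaling to a common total, and this was not tested.

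By size, 1785 called transcripts changed less than 2-fold, 2529 by 2 to 4-fold, 2250 by 4 to 16-fold, 797 by 16 to 64-fold and 575 by 64-fold or more. Up to 16-fold the directions were near even, with 1258 rises and 1271 falls at 2 to 4-fold and 1123 and 1127 at 4 to 16-fold. Above that rises were more numerous, with 448 against 349 at 16 to 64-fold and 370 against 205 at 64-fold or more. Fitted folds of transcripts with no counts in 1 group depend on the prior count, which touches the last class most. A test of whether the change exceeded 2-fold (glmTreat of edgeR) called 3580 kept transcripts, 1864 higher and 1716 lower, against 21.3% of all tested transcripts. The 95% interval of the log2 fold change reached a median of 0.95 to either side. It lay wholly within 2-fold for 3265 kept transcripts (18.8%), and for the rest a 2-fold change in at least 1 direction was not excluded.

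**Figure D2:**
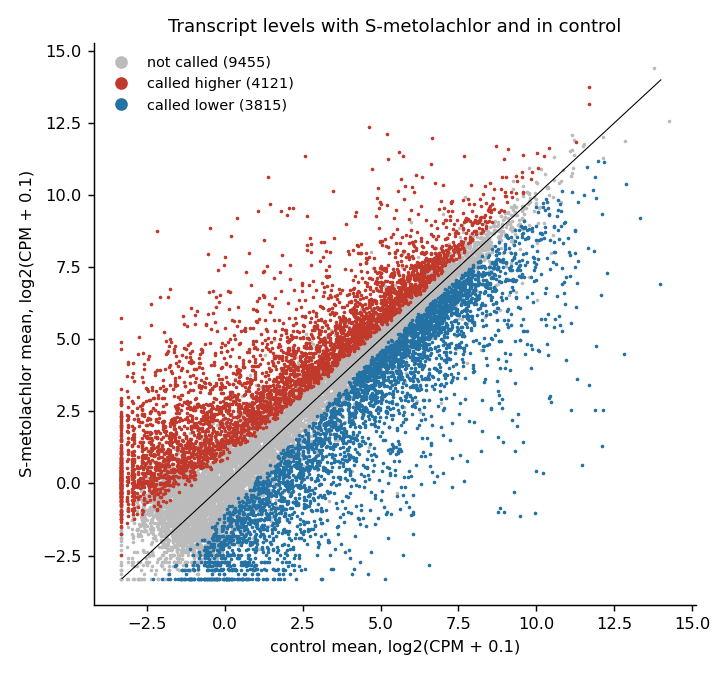
Mean level of each of the 17391 tested transcripts in control (x axis) and with S-metolachlor (y axis), both as log2(CPM + 0.1), with the line of equal levels. Called rises (4121, red) and falls (3815, blue) lie on either side of the uncalled transcripts (9455, grey), and the column and row at the edges are transcripts at 0 in 1 group.

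The direction of change differed with abundance. Among the 99 transcripts with a mean of 1000 CPM or more over all 15 libraries, 15 were called higher and 49 lower. From 100 to 1000 CPM, 481 of 2237 were higher and 767 lower, and from 10 to 100 CPM the numbers were near even, 1401 and 1437 of 5208. From 1 to 10 CPM, 1366 of 5169 were higher and 1047 lower, and under 1 CPM 858 of 4678 were higher and 515 lower. The filter on low counts favours transcripts high in some group, so the counts of the lowest class are a description only. The classes rest on a mean over all 15 libraries, most of them without S-metolachlor. A transcript that falls only with S-metolachlor thus tends to stay in a high class, and one that rises only there in a low class. The trend over the classes is therefore partly built in and is a description, not a test. Under limma on log2(FPKM + 1), falls still outnumbered rises at 1000 CPM or more, 39 against 21, but not from 100 to 1000 CPM, with 655 rises and 604 falls, nor from 10 to 100 CPM, with 1802 and 1041.

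**Figure D3:**
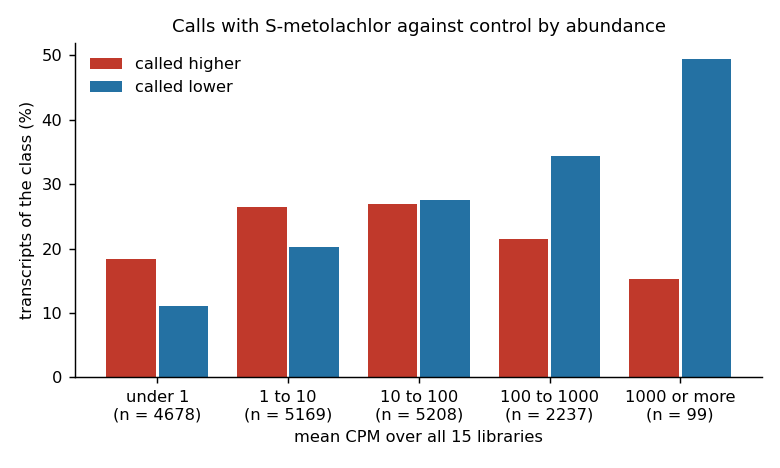
Share of transcripts called higher (red) and lower (blue) with S-metolachlor against control, in percent of each class of mean CPM over all 15 libraries. The share called lower is 11% under 1 CPM and 49.5% at 1000 CPM or more, and the share called higher is 18.3% and 15.2%.

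The most abundant transcripts of the mycelium were largely exchanged. Of the 100 most abundant in control, 73 were called lower with S-metolachlor, 3 higher and 24 neither, with a median log2 fold change of -2.34. Of the 100 most abundant with S-metolachlor, 53 were called higher and 9 lower. A list picked for its level in 1 group tends to be lower in the other, so these counts describe the lists and are no test. The lists shared 32 transcripts, whereas the control list shared 51 with that of trifluralin, 55 with that of pendimethalin and 55 with that of acetochlor. Among the 1000 most abundant, the control shared 572 with S-metolachlor and 720, 762 and 745 with trifluralin, pendimethalin and acetochlor.

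As a share of the sequenced counts, the 4121 transcripts called higher held 11.1 ± 1.61% of the control libraries and 40.1 ± 1.60% of the S-metolachlor libraries (SD, n = 3 each). The 3815 called lower held 51.1 ± 2.42% and 16.4 ± 0.831%, and those not called 37.8 ± 1.59% and 43.3 ± 1.07%. These shares follow from the calls and are a description. In the 9 libraries of the other herbicides, the same rises held 16.1 to 21.1% and the same falls 34.1 to 39.8%. Transcripts chosen for a gap between S-metolachlor and control can be expected to lie between them elsewhere, so these shares too are only a description.

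At the margin of detection, 172 kept transcripts (0.894%) had 0 counts in every control and at least 10 in every S-metolachlor library. All 172 were called higher. The reverse, 0 in every S-metolachlor library and at least 10 in every control library, held for 39 (0.203%), all called lower. Transcripts chosen for such a gap had to differ, so these counts are descriptions. The leaving-out rule can remove transcripts of the first kind only, so the 172 depends on it. Shares over all transcripts were not computed here. Of the 172, 18 were at 0 in all 12 other libraries, 88 have names ending in 1, and in 5 replicate 1 held at least 4 times the count of replicate 2, the mark of the left-out transcripts. Of the 39, 13 had counts in all 9 libraries of the other herbicides. A library with 0 counts allows up to 3 fragments, which covers counting error only.

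More transcripts were detected with S-metolachlor. The control libraries had counts in 17547 to 17780 of the 19229 kept transcripts and the S-metolachlor libraries in 18109 to 18301, with means of 17672 ± 117 and 18194 ± 98.0 (SD, n = 3 each) and no overlap. With the left-out transcripts counted too, the difference in means was 1375 in place of 522. The difference of 522 had an exact two-sided permutation p of 0.1, the smallest that 3 against 3 allows. With at least 10 counts required, the difference was 1150 (exact p = 0.1). The 100 most abundant transcripts of each library held 28.0 ± 2.89% of the counts in control and 25.5 ± 0.686% with S-metolachlor, and these groups overlapped (exact permutation p = 0.3). Depth was alike, with 23921235 to 24309184 expected counts in control and 23571506 to 24053546 with S-metolachlor.

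Spread within the group was lowest for S-metolachlor. Over the 7544 kept transcripts with a mean of at least 10 CPM, the SD of log2(CPM + 1) within the group had a median of 0.12, against 0.26 in control, 0.23 with trifluralin, 0.30 with pendimethalin and 0.27 with acetochlor. An SD above 1, or 2-fold on the linear scale, was found for 27 of these transcripts with S-metolachlor and for 337 in control, 448 with trifluralin, 758 with pendimethalin and 244 with acetochlor. The rule chose the left-out transcripts for disagreement between S-metolachlor replicates 1 and 2. None of them had a mean of at least 10 CPM over all 15 libraries, so keeping them in leaves these values the same. The rule also held their mean over the other groups under 2 counts, so few could reach 10 CPM, and their absence does not bear on the spread. With 3 libraries each, the SDs describe the libraries. Since 1 estimate of spread served all groups, the fit was repeated with the compared groups alone. With these 6 libraries, 8341 of 15768 kept transcripts tested were called, 7300 of them also called in the fit of all 15 libraries. The share over all tested transcripts was not computed for this fit.

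To see which transcripts set S-metolachlor apart from herbicide treatment as such, its libraries were compared with the mean of trifluralin, pendimethalin and acetochlor on the log2 scale. This contrast is the difference between the effect of S-metolachlor and the mean effect of the others, since control cancels. Of the kept transcripts tested, 7572 (43.5%) were called, 4017 higher and 3555 lower with S-metolachlor. Of all tested transcripts 44.1% were called, 23.8% higher and 20.3% lower. Among the kept, 5203 (29.9%) were called and differed at least 2-fold. In the comparison over single libraries, all 3 S-metolachlor libraries lay above all 12 others in 2859 kept transcripts and below all 12 in 2161. Over all tested transcripts these shares were 17.2% and 12.3%. For the control libraries the same counts were 851 and 786, for acetochlor 192 and 151, for trifluralin 105 and 97, and for pendimethalin 63 and 36. Lying apart also depends on spread within the group, which was lowest for S-metolachlor, so these counts do not rank the groups by effect. In 976 kept transcripts (5.61%) the lowest S-metolachlor library was at least 2 times the highest other library. In 62 (0.357%) it was at least 10 times as high and at 10 CPM or more. In the other direction, 468 kept transcripts (2.69%) had their highest S-metolachlor library at or under 0.5 times the lowest of the others. Of the kept, 25 (0.144%) differed 10-fold with at least 10 CPM in every other library. Shares over all tested transcripts were not computed for these 2-fold and 10-fold counts.

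**Figure D4:**
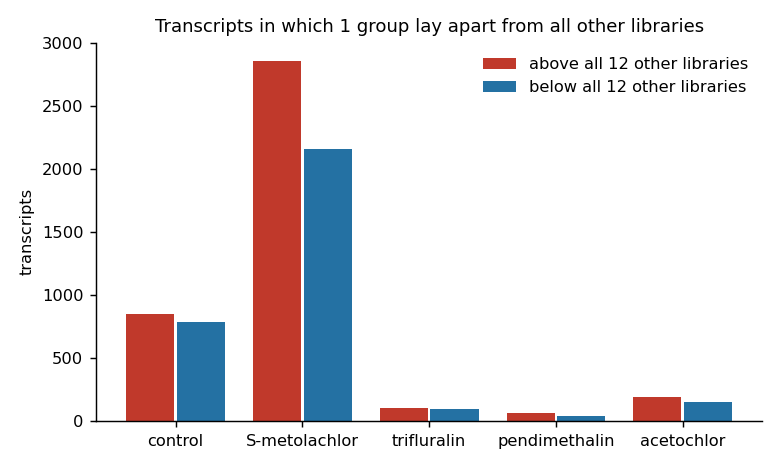
Number of the 17391 tested transcripts in which all 3 libraries of 1 group lay above (red) or below (blue) all 12 libraries of the other groups. S-metolachlor stands at 2859 and 2161, control at 851 and 786, and no other herbicide exceeds 192.

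The largest rise against the other herbicides was in TRINITY_DN5126_c0_g1_i2_5, at 456, 508 and 436 CPM with S-metolachlor. The other 9 herbicide libraries held at most 2.66 CPM, with a mean of 0.469 ± 0.832 CPM (SD, n = 9), and control 0.624 ± 0.240 CPM (n = 3). The ratio of means was 995, or 2391 without pendimethalin replicate 2, which was the highest of the other libraries, and the log2 difference was 10.55 (SE 0.61, edgeR adjusted p = 1.16e-07; 11.25 without that library). Against control the log2 fold change was 9.55 (SE 0.95, edgeR adjusted p = 1.23e-05), and none of the other herbicides was called against control (edgeR adjusted p = 0.382, 0.581 and 0.162 for trifluralin, pendimethalin and acetochlor). The 3 S-metolachlor libraries agreed closely, and the transcript was near the margin of detection elsewhere.

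The next rise, in TRINITY_DN8729_c0_g2_i1_1, owes most of its size to 1 library. Its S-metolachlor libraries were at 70.0, 3.27 and 7.42 CPM, the other herbicides at 0.0897 ± 0.200 CPM (SD, n = 9) and control at 0.189 ± 0.169 CPM (n = 3). The log2 difference was 9.48 (SE 1.09, edgeR adjusted p = 5.68e-05), and 7.15 without S-metolachlor replicate 1. The ratio of means was 299.9, or 59.6 without that replicate and 1126 without pendimethalin replicate 3, the only other herbicide library with more than 2 counts. The order of its libraries, replicate 1 highest and replicate 2 lowest, is that of the left-out transcripts, and it escaped the rule because its mean over the other groups was above 2. Whether it shares their source was not tested.

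The largest fall was in TRINITY_DN7825_c0_g1_i2_5. It stood at 332 ± 302 CPM with pendimethalin, 818 ± 314 with trifluralin and 1188 ± 103 with acetochlor (SD, n = 3 each), and at 0.237, 0.269 and 0 CPM in the S-metolachlor libraries. If its lowest deposited count, 6.27, is taken as 1 fragment, the low values correspond to 2 fragments in all. On that assumption, the ratio of the mean of the other herbicides to that of S-metolachlor, 4620, carries 95% counting limits of 1279 and 38153 (edgeR adjusted p = 3.77e-06). Control lay between, at 37.6 ± 6.44 CPM. The transcript was called higher than control with each of the other herbicides (edgeR adjusted p = 0.00398, 0.0147 and 0.00252 for trifluralin, pendimethalin and acetochlor) and lower with S-metolachlor (edgeR adjusted p = 6.03e-05). Acetochlor, which shares the chloroacetyl anilide core with S-metolachlor, had the highest mean of the herbicides, with libraries that overlapped those of trifluralin, and S-metolachlor had the lowest.

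TRINITY_DN12203_c0_g1_i1_3 had 0 counts in all 3 S-metolachlor libraries. The other herbicide libraries ranged from 0.123 to 144 CPM, with 77.9 ± 68.4 CPM for trifluralin, 34.7 ± 37.5 for pendimethalin and 0.462 ± 0.147 for acetochlor (SD, n = 3 each), and control was at 0.841 ± 0.774 CPM. The floor was 3 fragments over the S-metolachlor libraries, with 1 fragment assumed to be 3.44 counts. Against it, the mean of the other herbicides was at least 279.7-fold higher (edgeR adjusted p = 0.00654), or at least 181-fold without trifluralin replicate 3. Leaving out 1 S-metolachlor library raises the floor and gives at least 185-fold. Against control the difference was not called (edgeR adjusted p = 0.0864). Here most of the difference comes from high levels on the dinitroanilines trifluralin and pendimethalin, while acetochlor and control were low as well.

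**Figure D5:**
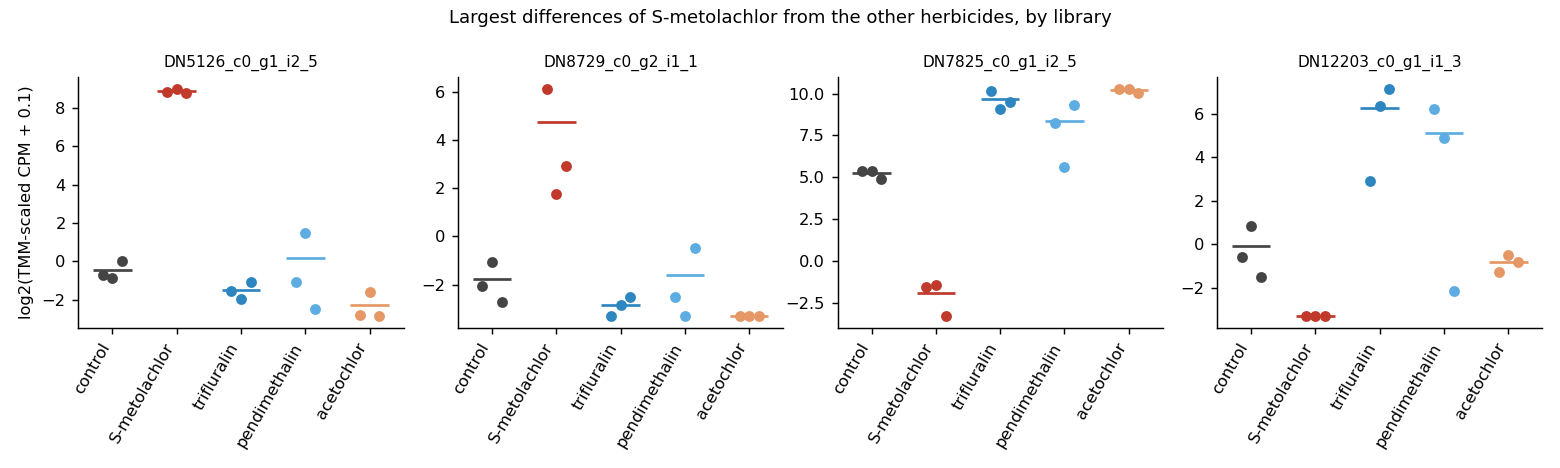
Levels of the 4 transcripts with the largest differences between S-metolachlor and the other herbicides, as log2(TMM-scaled CPM + 0.1), in each library (points) with the group mean (line). The S-metolachlor points of TRINITY_DN5126_c0_g1_i2_5 lie at 436 to 508 CPM, and those of TRINITY_DN8729_c0_g2_i1_1 spread from 3.27 to 70.0 CPM.

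Called transcripts had a larger median length than the uncalled, as a description with no test. The expected count divided by the FPKM is proportional to length, and relative to the median transcript it had a median of 1.51 for rises (quartiles 0.768 and 2.50), 1.40 for falls (0.793 and 2.18) and 1.01 for transcripts not called (0.522 and 1.93). The transcripts named for the comparison with control had values of 2.78 to 5.66. Longer transcripts collect more counts, so length and depth cannot be told apart here. Each name ends in a digit from 1 to 5. Rises made up 32.5% of the tested names ending in 1, 27.0% of those in 3, 22.5% of those in 5, 17.3% of those in 4 and 14.1% of those in 2. In the same order of digits, falls made up 19%, 22.0%, 20.0%, 23.2% and 28.2%. S-metolachlor had the highest mean of the 5 groups in 48.4% of names ending in 1, 40.3% in 3, 38.9% in 5, 20.5% in 4 and 18.3% in 2. With names ending in 1 taken out, 5809 transcripts were called, 2780 higher and 3029 lower, so the majority of rises turned into a majority of falls. Rises also outnumbered falls among names ending in 3 (985 against 803) and in 5 (887 against 789). Among names ending in 2 (333 against 663) and in 4 (575 against 774) falls were more numerous. With the digit kept and the isoform number removed, all 20602 names were distinct, so each assembled gene has 1 row for each digit at most. Transcripts of 1 gene could thus not be compared as isoforms.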

How the data were processed

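RNA of 15 mycelium libraries was sequenced, 3 from each of 5 groups named by treatment in the labels. The authors deposited a table of expected counts, which are estimates and mostly fractional, and a table of FPKM, which divides them by transcript length and library total. The submitters' processing notes list Trimmomatic, Bowtie2 and DESeq, and mm10, a mouse build, as the genome, although every row name is that of a de novo Trinity assembly. The program that counted is not stated. How it treated reads shared by near-identical transcripts is unknown, which limits the value of any single transcript.

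Expected counts were rounded, since the design assumed counts, and low transcripts were removed by the filterByExpr function of edgeR 4.0.16 at its defaults, a minimum count of 10 and a minimum total of 15. This kept 17555 transcripts, 164 of them left out afterwards. One quasi-likelihood fit with TMM scaling and 1 mean per group took all 15 libraries, and p-values were adjusted over all tested transcripts. Standard errors were derived from the fold change and the F statistic. DESeq2 1.42.0 and limma 3.58.1 were alternatives. The tests were also run on simulated data with few transcripts shifted, equally up and down. That run could not show how the scaling behaves where as many are called as here. For floors and counting limits, 1 fragment was taken as the lowest deposited count of the transcript, which is an assumption. For TRINITY_DN12203_c0_g1_i1_3 this was 3.44, and its rounded counts of 5, 12 and 13 are not multiples of it. For TRINITY_DN7825_c0_g1_i2_5 it was 6.27, itself the count of an S-metolachlor library. Floors are 3 fragments over the group at 95% confidence.

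Members and rules were chosen with earlier results of these data known. Named transcripts are the 2 with the largest gain and loss in mean CPM against control, and the 2 with the largest log2 rise and fall against the other herbicides at 10 CPM or more, among called transcripts without overlap of libraries, against all 12 others for the latter. The planned test of isoforms within a Trinity gene had nothing to test and was not run.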

Additional observations from a re-analysis of the deposited data

Results flagged for a closer look

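In 3 of the 4 transcripts named for the comparison with control, the effect of S-metolachlor differed from the mean effect of the other herbicides in the test of that difference. The log2 difference was 3.04 for TRINITY_DN8379_c1_g2_i1_1 (edgeR adjusted p = 0.000470), 1.59 for TRINITY_DN7992_c0_g1_i14_5 (edgeR adjusted p = 0.000460) and -6.47 for TRINITY_DN7810_c0_g1_i3_5 (edgeR adjusted p = 2.73e-06), and all 3 S-metolachlor libraries lay on the same side of all 9 others in each.

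The 1373 transcripts left out of the comparison held 148626 expected counts in S-metolachlor replicate 1, 0.6305% of that library, against 296 to 565 in the control libraries. The leaving-out rule used these counts, so their excess in replicate 1 is a description of the selection and no test. In S-metolachlor replicate 3, whose counts the rule did not use, 1037 of them had counts, against 149 to 237 in the control libraries, whose mean the rule kept low.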

How the results depend on the processing

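The number of transcripts called against control was 3580 when the change had to exceed 2-fold, since that test asks more. Under the other alternatives it lay from 5809 to 8834 against 7936, within 1.5 times. It was 5809 when names ending in 1 were taken out and 6366 to 7568 when 1 library was left out. RLE scaling gave 7951, DESeq2 8721 and no filter on low counts 7743. The numbers tested differed as well, so the counts are not compared at equal size. They were 17391 in the main fit, with RLE and with DESeq2, and 13262 without names ending in 1. Without 1 library they were 17876 to 18054, and 19229 were tested for the 7743 and the 8834. Against the other herbicides it was 5597 to 8296, and 5597 to 7818 without 1 library. Of the 7936, 7876 were called with DESeq2, 6917 in limma on log2(FPKM + 1) and 6267 without S-metolachlor replicate 1.

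With the replicate number as a replicate block, 7505 transcripts were called against control and 7106 against the other herbicides. Deviations of same-numbered S-metolachlor and control libraries correlated at 0.12, 0.0036 and -0.06, so the numbers do not pair them. TRINITY_DN8379_c1_g2_i1_1 missed the threshold under the block (edgeR adjusted p = 0.0506) and in the 2-fold test (adjusted p = 0.133). Its lowest edgeR adjusted p, 0.00151, came with only the compared groups in the fit. TRINITY_DN7992_c0_g1_i14_5 missed the threshold in the 2-fold test (adjusted p = 0.112). The other named transcripts kept direction and call under every alternative run for them. The size could change, as for TRINITY_DN12203_c0_g1_i1_3, at -3.68 in limma on log2(FPKM + 1) against -11.03 in the main fit. TRINITY_DN8729_c0_g2_i1_1 was not among the transcripts of that limma run. It was also absent from the run without transcripts at 4 times or more in S-metolachlor replicate 1 than in replicate 2. Chosen after the data were seen, the leaving-out rule on unrounded counts gave 7935 calls, and taking out transcripts at 4 times or more in S-metolachlor replicate 1 than in replicate 2 gave 7739, and 7380 against the other herbicides. The difference in detected transcripts was 460 to 576 without 1 library and 1375 with the left-out transcripts kept in, and in the share of the 100 most abundant -3.95 to -1.06 percentage points. Sums per Trinity gene with the same last digit equal the single rows and were not run. Falls of scarce transcripts are limited by depth.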
